A study of Mus musculus with 25 samples.

Results

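Epididymal white adipose tissue (eWAT) was compared with inguinal white adipose tissue (iWAT) in male mice that lacked Acod1 and ate a high-fat diet (HFD). Acod1 encodes the mitochondrial enzyme that makes itaconate from cis-aconitate. Of the 25 RNA-seq libraries in the series, 8 came from these animals, 5 from eWAT and 3 from iWAT, and the libraries were chosen by their labels. The animals carried the C57BL/6N knockout allele in every cell from birth, and no conditional or transgenic driver was used. The HFD began at 5 weeks of age and is given as 16 weeks for all 5 eWAT libraries and iWAT library 1, as 17 weeks for iWAT library 2 and as 18 weeks for iWAT library 3, although the study's text does not describe these longer times and the labels may be in error. Wild type littermates on the HFD (5 eWAT and 5 iWAT libraries) and wild type mice on a normal diet (ND, 4 eWAT and 3 iWAT libraries) were used only to set the depot difference of the knockout beside that of other mice. The labels do not say whether an eWAT and an iWAT library came from the same mouse.

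eWAT is a visceral depot that lies along the epididymis and is covered by mesothelium, the flat epithelium of the body cavity. iWAT is a subcutaneous depot under the skin of the flank, which holds a lymph node and the mammary fat pad region and turns on heat-producing (beige) genes more readily. Fat depots arise from different parts of the embryo, and adult fat cells and their progenitors keep position-dependent expression of homeobox and T-box transcription factors.

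Between 31405063 and 45773811 reads were counted in genes per eWAT library and between 32256225 and 43434132 per iWAT library. Levels are given as CPM, the count of a gene per 1e+06 counts of its library, scaled by the trimmed mean of M values over the 8 libraries, and the 14803 genes whose mean level reached 1 CPM were tested. A log2 fold change is eWAT minus iWAT, with its standard error, so that a positive value is a higher level in eWAT. Genes whose adjusted p was below 0.1 in edgeR's quasi-likelihood test are referred to as called. Acod1 itself had at most 2 reads in any of the 8 libraries and at most 9 in any wild type library, so its level did not check the genotype. The adipocyte list was abundant in both depots, with a summed level of 67545, 84976, 72931, 58668 and 54723 CPM in eWAT libraries 1 to 5 and 76513, 60039.7 and 70096 CPM in iWAT libraries 1 to 3, so both tissues held fat.

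Some libraries held transcripts typical of other tissues. A list of epididymal epithelium genes summed to 342, 1.86, 20.7, 4.57 and 1033 CPM in eWAT libraries 1 to 5 and to 0.392, 0.834 and 0.565 CPM in iWAT libraries 1 to 3. Sperm and spermatid genes, a list chosen after the values were seen, summed to 0.166, 132, 0.261, 716 and 134 CPM in eWAT and to 0 in all 3 iWAT libraries. iWAT library 2 stood apart from the other iWAT libraries, with 0.368, 416 and 0 CPM of Krt14, a keratin of basal epithelium, in iWAT libraries 1 to 3, and with 2510 CPM of sebaceous and preputial gland genes, a list also chosen after the values were seen, against 0.547 to 6.86 CPM in the other 7 libraries. In contrast, skeletal muscle genes were lower in every eWAT library, at 32, 84, 33.2, 16.8 and 33.3 CPM, than in the iWAT libraries, at 531, 342 and 119 CPM. The part of these tissues in the depot differences was not tested, beyond a fit without eWAT library 5 and iWAT library 2 that is given below.

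**Figure D1:**
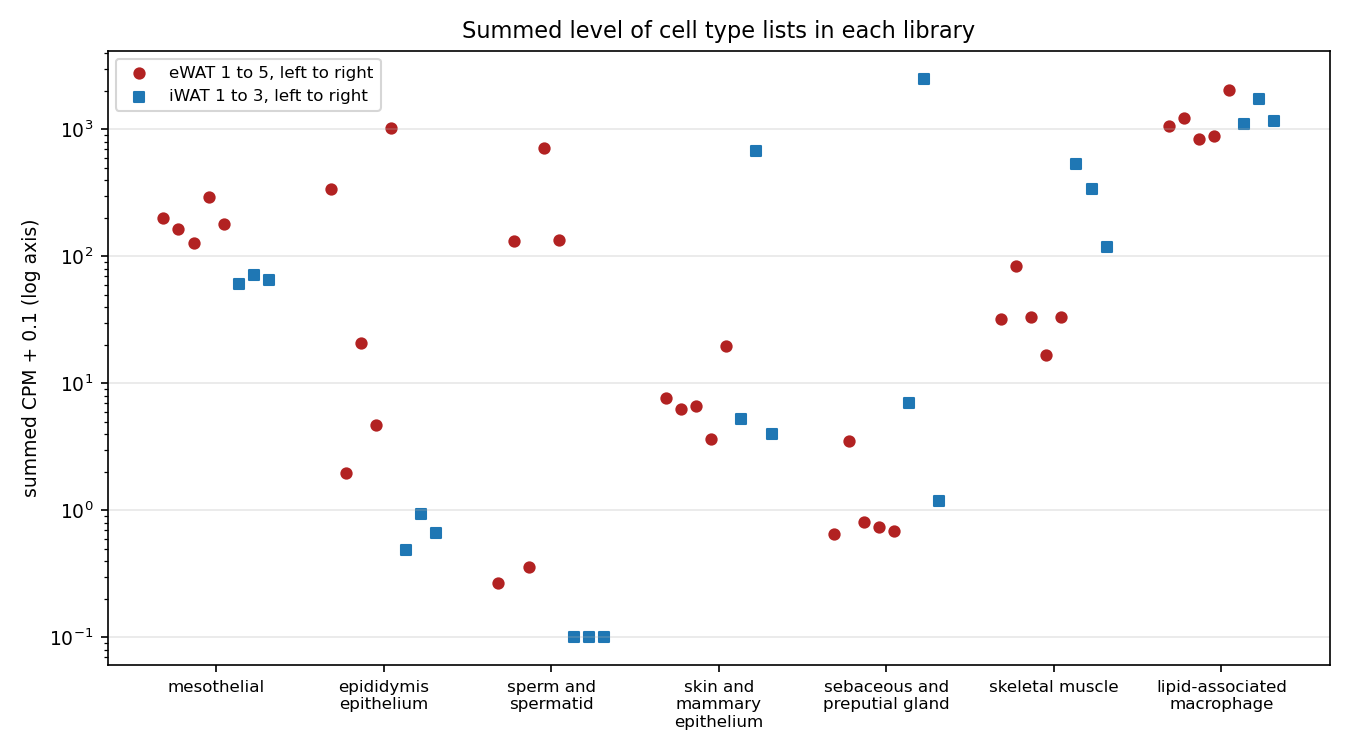
Summed level (CPM plus 0.1, log axis) of 7 cell type gene lists in each library, with circles for the 5 eWAT libraries and squares for the 3 iWAT libraries in numerical order. Mesothelial genes lie between 127 and 294 CPM in eWAT and between 60.7 and 70.7 CPM in iWAT, whereas the epididymal list peaks in eWAT libraries 1 and 5, the sperm list in eWAT libraries 2, 4 and 5 and the skin and gland lists in iWAT library 2. In iWAT most of the mesothelial sum is the claudin Cldn15, which was not higher in eWAT.

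The promoters of 4 called genes are printed here, as the 250 bases before the transcription start of a mesothelial gene and a secreted gene that were higher in eWAT (Upk3b, Agt) and of a homeobox gene and a chemokine gene that were lower in eWAT (Shox2, Cxcl14). The sequences are from RefSeq (GRCm38.p6) in the direction of transcription, and capitals mark matches, on either strand, to the letters TATAAA (those of the TATA box), CCAAT (of the CCAAT box) or GGGCGG (of the GC box). Upk3b lies at chr5:136038246-136038495 (plus strand), Agt at chr8:124569707-124569956 (minus), Shox2 at chr3:66981772-66982021 (minus) and Cxcl14 at chr13:56296552-56296801 (minus).
Upk3b: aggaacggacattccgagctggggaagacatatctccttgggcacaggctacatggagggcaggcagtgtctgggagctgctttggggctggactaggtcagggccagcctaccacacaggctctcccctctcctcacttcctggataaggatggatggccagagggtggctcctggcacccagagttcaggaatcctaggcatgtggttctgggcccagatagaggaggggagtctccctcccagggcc
Agt: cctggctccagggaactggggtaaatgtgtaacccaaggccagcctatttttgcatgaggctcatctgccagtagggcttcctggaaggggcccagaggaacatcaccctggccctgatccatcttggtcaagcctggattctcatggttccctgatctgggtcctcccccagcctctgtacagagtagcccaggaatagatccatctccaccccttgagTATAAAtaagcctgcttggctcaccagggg
Shox2: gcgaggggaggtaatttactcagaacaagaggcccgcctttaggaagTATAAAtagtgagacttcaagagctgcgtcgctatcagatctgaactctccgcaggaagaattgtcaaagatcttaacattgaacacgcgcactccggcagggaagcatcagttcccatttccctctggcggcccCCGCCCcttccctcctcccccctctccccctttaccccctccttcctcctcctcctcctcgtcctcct
Cxcl14: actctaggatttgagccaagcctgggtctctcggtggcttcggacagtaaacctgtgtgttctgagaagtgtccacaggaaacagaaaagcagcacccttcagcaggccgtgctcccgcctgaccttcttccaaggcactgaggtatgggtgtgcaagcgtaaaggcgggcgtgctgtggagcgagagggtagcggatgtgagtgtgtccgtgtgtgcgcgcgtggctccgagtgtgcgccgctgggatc
Agt held a TATAAA that began 30 bases before the start, and Shox2 held a TATAAA that began 203 bases and a GGGCGG that began 68 bases before it. None of the letters searched were in the Upk3b and Cxcl14 windows. Of the called genes, 25 that were higher and 26 that were lower in eWAT had a promoter in the table. TATAAA was in 24% of the 25, 19.2% of the 26 and 12.9% of all 27025 promoters of this length. CCAAT was in 28%, 23.1% and 34.2%, and GGGCGG in 40%, 46.2% and 32.7% of the same sets.

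A total of 39 genes were higher and 34 were lower in eWAT than in iWAT. Thus 0.493% of the genes tested were called, 0.263% as higher and 0.230% as lower, and all 73 code for proteins. The genes higher in eWAT were led by markers of the mesothelium (Upk1b, Msln, Wt1, Muc16, Krt7) and by secreted proteins (Agt, Penk, Rspo1). The genes lower in eWAT were led by the positional transcription factors Tbx15, Shox2 and Hoxc10, the beige fat gene Cidea and the chemokine Cxcl14. No called gene had eWAT libraries that overlapped with iWAT libraries. By comparison, 3.08% of all genes tested had every eWAT library above every iWAT library, and 2.80% had every eWAT library below.

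The count depended on the libraries and on the tool. The direction of the called genes did not change in any setting tried, but with depots that did not overlap it could hardly change. Without eWAT library 1, 2, 3, 4 or 5 in turn, the genes called numbered 18, 23, 37, 25 and 55, and without iWAT library 1, 2 or 3 they numbered 23, 25 and 35. In all 8 of these fits 14 genes were called, among them Upk1b, Wt1, Msln, Muc16, Krt7, Nkain4, Pkhd1l1 and Agt above and Tbx15, Cidea, Cxcl14, Vat1l and Ntrk3 below. By contrast, 17 of the 73 were called in none of them, including Nog, Col4a6, Slco2a1, Acsf2, Akr1c18, Rsrc1 and Ccl21a, and S100b, Prdm16, Upk3b, Ptgis, Enpep, Pdpn, Pcolce, Grb14 and H2-Q10 were called in 1. The fold of 15 of the 73 moved by over 1.5 times without 1 library, which was an iWAT library for 13 of them. DESeq2's Wald test called 352 genes as higher (2.42%) and 155 as lower (1.07%), among them all 73. A fit of the 8 libraries together with the 17 wild type libraries called 302 as higher (2.01%) and 271 as lower (1.80%), among them 71 of the 73. Without both eWAT library 5 and iWAT library 2, a fit added after the values were seen, 17 genes were higher and 18 lower, of which 22 were among the 73. With the 6 libraries labelled 16 weeks, of which 1 was from iWAT, no gene passed edgeR's test, although 929 had an unadjusted p under 0.05, and if the labels of iWAT libraries 2 and 3 are right, depot and length of feeding cannot be told apart in them.

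**Figure D2:**
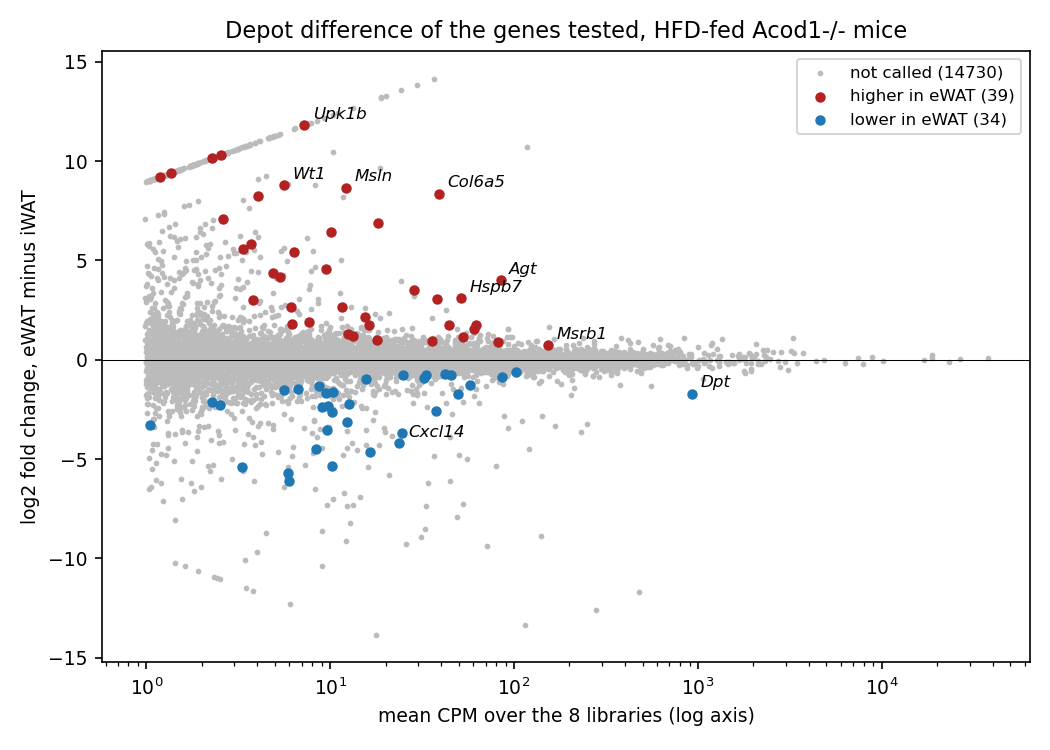
Log2 fold change (eWAT minus iWAT) against mean CPM over the 8 libraries (log axis) for the 14803 genes tested, with the 39 genes called higher in red, the 34 called lower in blue and all others in grey. Most genes with a large fitted fold change are grey, since 245 of the 311 genes beyond 5 in either direction had overlapping libraries and were not called.

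A large fold change was therefore not enough for a call. Of 311 genes whose fitted log2 fold change was beyond 5 in either direction, 19 were called, 47 were not called although the depots did not overlap, and 245 had depots that overlapped. Adam7, an epididymal gene, shows the pattern, with 51.7, 0, 2.01, 0.513 and 107 CPM in eWAT libraries 1 to 5 and 0, 0 and 0 CPM in iWAT. Its level was high in eWAT libraries 1 and 5 only, and it was not called (adjusted p = 0.407). Likewise, of 163 tested genes at 0 in all 3 iWAT libraries, 5 were called.

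Mesothelial genes showed the clearest difference, with 9 of the 15 tested members higher in eWAT, none lower, and 12 with every eWAT library above every iWAT library. The median log2 fold change of the list was 4.38, beside -0.02 over all genes tested. Upk1b (chr16:38773184-38800328), a uroplakin of the urothelial and mesothelial surface, had 13, 10.4, 6.96, 19.5 and 8.03 CPM in eWAT libraries 1 to 5 and no read in any iWAT library. All 5 eWAT libraries were thus far above iWAT, with library 4 highest and library 3 lowest. Against a limit of 3 reads in each iWAT library, Upk1b was at least 147-fold higher in eWAT (adjusted p = 0.00521).

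Msln, the surface protein mesothelin, was measured at 17.8, 22.3, 7.61, 34.7 and 15.3 CPM in eWAT and at 0, 0.154 and 0 CPM in iWAT (log2 fold change 8.67 ± 1.01, adjusted p = 0.0153). The size of this fold rested on 5 reads in iWAT library 2, without which Msln had no read in iWAT and a fitted value of 12.60. Wt1 (chr2:105126529-105173616), a zinc finger transcription factor of the mesothelium and kidney, had 8.06, 7.26, 5.998, 17.5 and 5.82 CPM in eWAT and 0.049, 0 and 0 CPM in iWAT, where only 2 reads were counted. The fitted fold of Wt1 was 438 (adjusted p = 0.00969). The ratio of its pooled counts had a 95% exact counting interval of 142 to 4237. For both genes eWAT library 4 was again highest and the depots were separated by more than the spread within either.

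The mucin Muc16, which carries the CA125 epitope, had 3.35, 3.47, 2.14, 5.83 and 3.34 CPM in eWAT, and the keratin Krt7 had 3.35, 4.9, 1.59, 6.72 and 3.71 CPM, each with no read in iWAT. They were at least 45.9-fold and at least 51.4-fold higher in eWAT (adjusted p = 0.0119 and 0.0195). A further keratin, Krt19, was at 2.92 to 12.9 CPM in eWAT and 0.185 to 0.588 CPM in iWAT (log2 fold change 4.38 ± 0.64, adjusted p = 0.0488). The other keratins of simple epithelia did not separate the depots, since Krt8 was at 2.16 to 11.7 CPM in eWAT and 1.2 to 3.15 CPM in iWAT (adjusted p = 0.516) and Krt18 had an adjusted p of 0.632.

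Upk3b, a partner of the other uroplakins, was at 33, 19.5, 10.8, 56.8 and 24.2 CPM in eWAT and at 0, 0.803 and 0 CPM in iWAT, with reads in iWAT library 2 only, without which the fitted value was 13.17 (log2 fold change 6.86 ± 1.24, adjusted p = 0.0929). This call was less firm than that of Upk1b and was kept in 1 of the 8 fits without 1 library, where the adjusted p ranged from 0.0353 to 0.209. The membrane glycoprotein Gpm6a was at 6.39 to 26.9 CPM in eWAT and 0.185 to 1.06 CPM in iWAT (log2 fold change 4.57 ± 0.71, adjusted p = 0.0568). Of the members that were not called, Lrrn4, Bnc1 and Aldh1a2, the enzyme that makes retinoic acid from retinal, had depots apart with log2 fold changes of 3.36, 3.79 and 2.58 (adjusted p = 0.129, 0.416 and 0.138). The claudin Cldn15 went the other way, at 33.8 to 51 CPM in eWAT and 51.8 to 56 CPM in iWAT (adjusted p = 0.553). In bulk tissue, fewer cells of a type and less RNA per cell cannot be told apart.

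**Figure D3:**
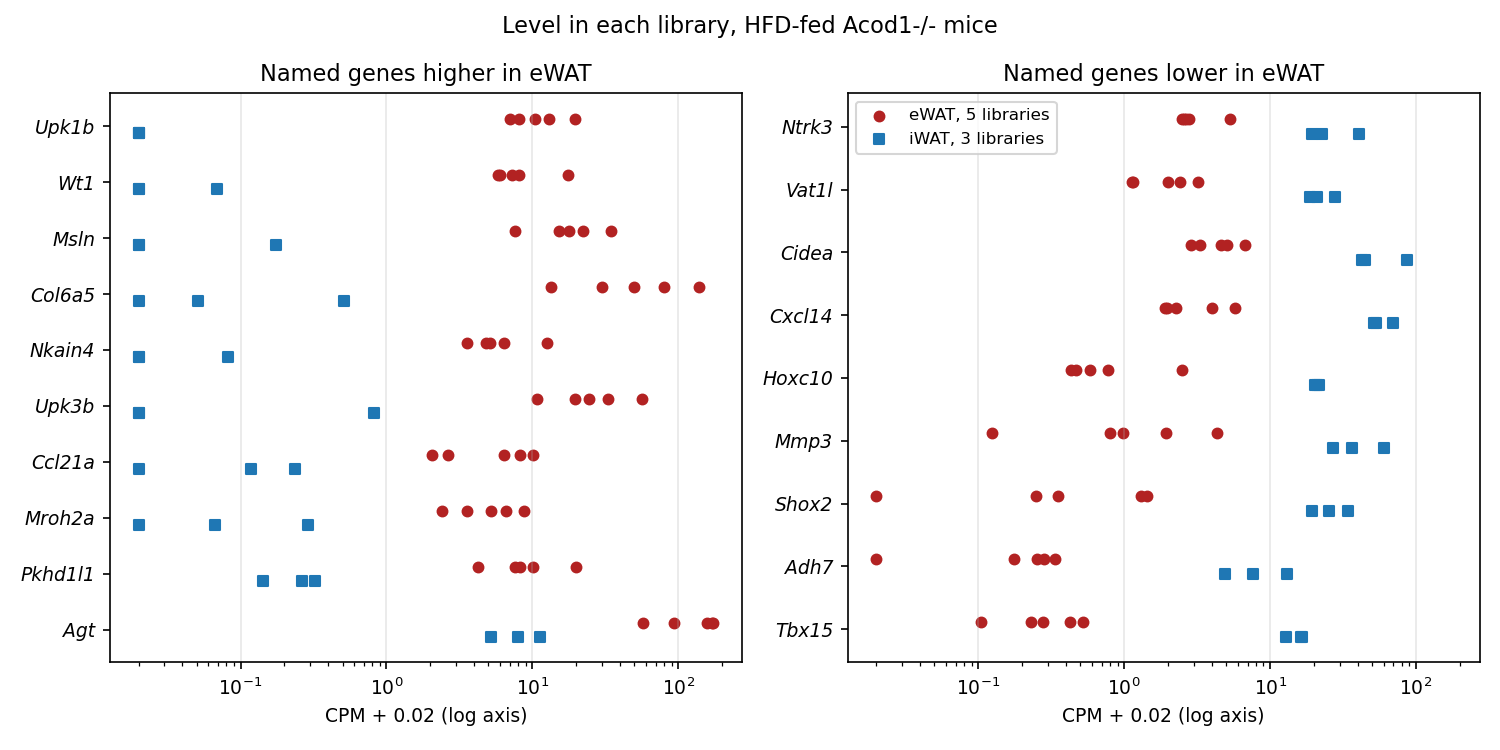
Level of 19 called genes (CPM plus 0.02, log axis) in the 5 eWAT libraries (circles) and the 3 iWAT libraries (squares), with 10 genes higher in eWAT on the left and 9 lower in eWAT on the right. No gene has a circle and a square at the same level, and the points at the left edge of each panel are libraries with 0 reads.

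Beyond the mesothelial list, Agt (chr8:124556534-124569706), angiotensinogen, the precursor of the angiotensin peptides, was one of the most abundant genes higher in eWAT. It had 156, 94, 174, 169 and 57.6 CPM in eWAT libraries 1 to 5 and 11.3, 5.22 and 7.93 CPM in iWAT libraries 1 to 3 (log2 fold change 3.99 ± 0.46, adjusted p = 0.0153). The lowest eWAT library, library 5, was still above the highest iWAT library. Its promoter is the one printed above with a TATAAA close to the start. Enpep, aminopeptidase A, which cleaves angiotensin II, was also higher in eWAT, at 50.6 to 124 CPM beside 22.1 to 29.5 CPM (log2 fold change 1.75 ± 0.32, adjusted p = 0.0938).

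Among other secreted proteins, Penk, which encodes proenkephalin, was at 60.7, 18.9, 51, 42.4 and 45.6 CPM in eWAT and 6.49, 2.13 and 2.73 CPM in iWAT (log2 fold change 3.53 ± 0.50, adjusted p = 0.0419). Rspo1, an R-spondin that amplifies Wnt signals and a member of the mesothelial list as well, was at 18, 18.9, 11.3, 22.7 and 13.3 CPM in eWAT and 2.74, 3.67 and 1.62 CPM in iWAT (log2 fold change 2.65 ± 0.35, adjusted p = 0.0301). It was called in 7 of the 8 fits without 1 library. Rspo1 was the only called gene of 14 tested Wnt ligands and antagonists, of which Dkk2, a Wnt antagonist, was lower in every eWAT library (log2 fold change -2.81 ± 0.55, adjusted p = 0.110). The BMP antagonist Nog was at 5.7 to 13.3 CPM in eWAT and 0.957 to 2.3 CPM in iWAT (log2 fold change 2.65 ± 0.47, adjusted p = 0.0889).

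Enzymes and a transporter of small molecules were also called. Ptgis, prostacyclin synthase, was at 12.5 to 28.6 CPM in eWAT and 2.87 to 6.1 CPM in iWAT (log2 fold change 2.17 ± 0.37, adjusted p = 0.0807), and the prostaglandin transporter Slco2a1 was at 11.7 to 20.8 CPM and 5.77 to 7.87 CPM (adjusted p = 0.0952). Sult1e1, which sulfates and so inactivates estrogens, was at 77.5, 20.4, 76.5, 68.5 and 39.8 CPM in eWAT and 11.1, 4.6 and 4.71 CPM in iWAT (log2 fold change 3.06 ± 0.53, adjusted p = 0.0854). Akr1c18, a hydroxysteroid dehydrogenase, was lower in eWAT, at 0.107 to 0.365 CPM beside 1.94 to 3.03 CPM (log2 fold change -3.27 ± 0.53, adjusted p = 0.0681). The small heat shock protein gene Hspb7 was at 45.5 to 113 CPM in eWAT and 2.35 to 15.6 CPM in iWAT (adjusted p = 0.0938).

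Of 22 tested collagen genes, 2 were higher in eWAT and none lower, with a list median of 0.02. Col6a5, a chain of collagen VI, was at 79.6, 13.4, 49.8, 30.1 and 138 CPM in eWAT and 0, 0.0309 and 0.494 CPM in iWAT (log2 fold change 8.37 ± 1.24, adjusted p = 0.0488), and the fold was 11.84 on the log2 scale without iWAT library 3, which held 21 of its 22 iWAT reads. Col4a6, a basement membrane chain with 3 reads in all of iWAT, had 8.11, 1.47, 3.03, 1.87 and 6.32 CPM in eWAT, a fitted fold of 135 (adjusted p = 0.0889). The ratio of its pooled counts had a 95% exact counting interval of 58.9 to 839. By contrast, Col1a1, the main fibrillar collagen, was lower in every eWAT library, at 209, 217, 145, 181 and 483 CPM beside 560.0, 569 and 665 CPM in iWAT, without passing the test (log2 fold change -1.28 ± 0.35, adjusted p = 0.278). Pcolce, which enhances the processing of procollagen, was lower in eWAT at 22.6 to 52.6 CPM beside 86.9 to 94.6 CPM (log2 fold change -1.28 ± 0.24, adjusted p = 0.0964), and so was dermatopontin (Dpt), a matrix protein of skin and the most abundant called gene, at 599, 526, 544, 347 and 504 CPM beside 1430.5, 1271 and 2231 CPM (log2 fold change -1.71 ± 0.23, adjusted p = 0.0369).

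Surface proteins were also higher in eWAT at low levels. Nkain4 had 6.42, 4.83, 3.57, 12.5 and 5.13 CPM in eWAT and 2 reads in all of iWAT, a fitted fold of 306 (adjusted p = 0.0195). The ratio of its pooled counts had a 95% exact counting interval of 104 to 3124. Pkhd1l1, a fibrocystin-like membrane protein, was at 7.58, 10.02, 4.2, 19.9 and 8.26 CPM in eWAT and 0.245, 0.124 and 0.306 CPM in iWAT (log2 fold change 5.44 ± 0.64, adjusted p = 0.0159). In both genes no eWAT library came near the iWAT levels.

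Ccl21a, a chemokine of lymph nodes and lymphatic vessels that attracts CCR7-bearing cells, was at 6.4, 2.61, 2.03, 8.21 and 10.1 CPM in eWAT and 0.098, 0.216 and 0 CPM in iWAT (log2 fold change 5.82 ± 1.07, adjusted p = 0.0938). It lost its call in each of the 8 fits without 1 library, with an adjusted p of 0.112 to 0.235, and its reads may be shared with near-identical gene copies. The B cell list summed to 15.3, 5.9, 9.05, 58.8 and 19.9 CPM in eWAT libraries 1 to 5 and to 6.49, 7.84 and 2.8 CPM in iWAT, and its part in the Ccl21a result was not tested. Podoplanin (Pdpn), a surface protein of lymphatic endothelium and mesothelium, was at 13.7 to 34.8 CPM in eWAT and 5.9 to 7.13 CPM in iWAT (log2 fold change 1.74 ± 0.31, adjusted p = 0.0885). Mroh2a was at 2.4 to 8.8 CPM in eWAT and 0 to 0.27 CPM in iWAT (adjusted p = 0.0938), and was called in 2 of the 8 fits without 1 library.

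**Figure D4:**
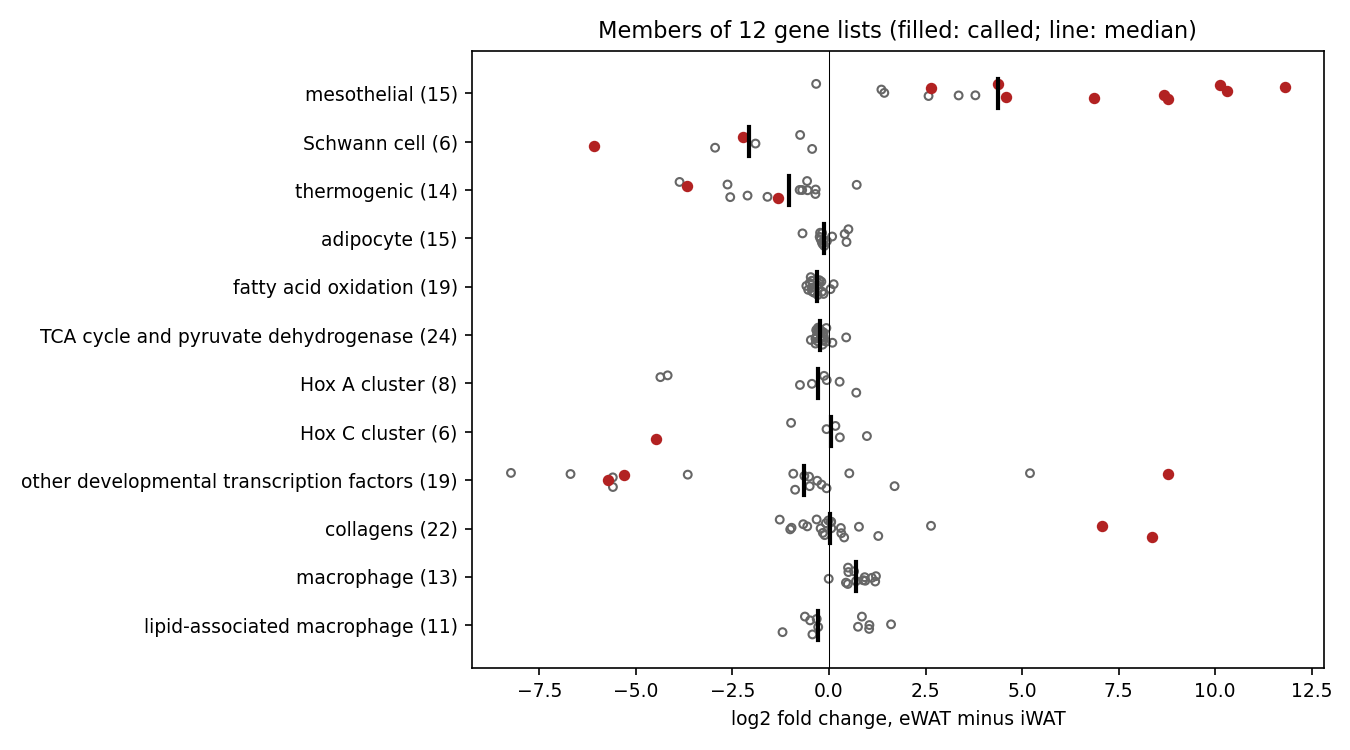
Log2 fold change (eWAT minus iWAT) of each tested member of 12 gene lists, with filled points for called genes, open points for the others and a line at the median. Mesothelial genes lie to the right with a median of 4.38, Schwann cell genes to the left with a median of -2.06, and adipocyte genes around 0 with a median of -0.14.

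The genes lower in eWAT included Schwann cell genes. S100b, a calcium-binding protein of Schwann cells that adipocytes also express, was at 4.28, 10.9, 3.29, 4.03 and 4.28 CPM in eWAT libraries 1 to 5 and 21.6, 31.8 and 21.3 CPM in iWAT libraries 1 to 3 (log2 fold change -2.22 ± 0.39, adjusted p = 0.0854), and it overlaps Dip2a on the opposite strand. All 6 tested Schwann cell genes had a negative log2 fold change, 2 of them were called, and the list median was -2.06. Of all 14803 genes tested, 7738 had a negative value and 34 were called lower in eWAT.

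Other Schwann cell genes were less clear. Mbp, myelin basic protein, was below iWAT in every eWAT library (18.9 to 28.7 against 38.4 to 43.4 CPM) at an adjusted p of 0.161, and Cdh19 likewise (0.25 to 2.12 against 4.26 to 10.2 CPM, adjusted p = 0.215). Ntrk3, the receptor of neurotrophin 3, was at 2.54, 2.65, 5.29, 2.75 and 2.48 CPM in eWAT and 19.4, 40.3 and 22.7 CPM in iWAT (log2 fold change -3.13 ± 0.34, adjusted p = 0.0107), so that the highest eWAT library, library 3, was well under the lowest iWAT library. Without iWAT library 2, its highest library, the log2 fold change was -2.75.

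Transcription factors of body position came next. Tbx15 (chr3:99240381-99354259), a T-box factor of limb and trunk development, was at 0.404, 0.501, 0.209, 0.257 and 0.0835 CPM in eWAT and 16.4, 12.8 and 16.2 CPM in iWAT (log2 fold change -5.71 ± 0.49, adjusted p = 0.00473). Shox2, a homeobox factor of the limb whose promoter is printed above, was at 0.333, 0, 1.28, 1.41 and 0.23 CPM in eWAT and 19.5, 25.4 and 34.2 CPM in iWAT (log2 fold change -5.32 ± 0.88, adjusted p = 0.0780). Its call was kept in 2 of the 8 fits without 1 library. Shox2 overlaps the called gene Rsrc1 on the opposite strand, whose difference was small (27.8 to 37.9 CPM in eWAT and 52.1 to 59.9 CPM in iWAT, log2 fold change -0.72 ± 0.13).

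In the 19 tested developmental factors outside the Hox clusters, 1 was higher (Wt1) and 2 lower (Tbx15, Shox2) in eWAT, and the median was -0.64. A further group was below iWAT in every eWAT library without being called, of which Irx1, Irx2 and Lhx8 had log2 fold changes of -5.60, -6.70 and -5.60 (adjusted p = 0.297, 0.126 and 0.215). Irx2 was uneven within iWAT, at 3.92, 87.3 and 1.98 CPM in libraries 1 to 3, with its peak in the library that held skin and gland transcripts. Tcf21, a factor of visceral mesenchyme, was above iWAT in every eWAT library, at 2.58 to 5.8 CPM beside 0 to 0.306 CPM (log2 fold change 5.21 ± 1.06, adjusted p = 0.129). Twist1 and Twist2 were lower in every eWAT library by small amounts (log2 fold changes -0.64 and -0.93, adjusted p = 0.278 and 0.326).

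Of the Hox genes, Hoxc10 (chr15:102966796-102971893) was the only one called, at 2.45, 0.751, 0.443, 0.411 and 0.563 CPM in eWAT and 21.6, 21 and 20.1 CPM in iWAT (log2 fold change -4.49 ± 0.58, adjusted p = 0.0269). The 3 iWAT libraries were close together, and eWAT library 1 was the highest of its depot. The call was lost without eWAT library 2, where the adjusted p was 0.103. Hoxa9 and Hoxa10 had differences of like size, at 4.04, 0.286, 2.27, 0.308 and 1.82 and 1.4, 0.537, 0.861, 0 and 0.918 CPM in eWAT and 22.8, 55.5 and 17.5 and 12.8, 16.2 and 17.5 CPM in iWAT, and narrowly missed the threshold (adjusted p = 0.105 and 0.107). Their neighbours Hoxa5 and Hoxa7 overlapped between the depots, with Hoxa5 at 6.11 to 33.4 CPM in eWAT and 3.91 to 20.2 CPM in iWAT (adjusted p = 0.800 and 0.986). Hoxc10 overlaps Hoxc5 on the same strand, and Hoxc5 was at 9.39 to 24.2 CPM in eWAT and 14 to 16.9 CPM in iWAT (adjusted p = 0.832).

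Among genes of beige and brown fat, Cidea, a lipid droplet protein, was at 4.59, 6.69, 2.87, 5.03 and 3.3 CPM in eWAT and 44.7, 86 and 42.4 CPM in iWAT (log2 fold change -3.69 ± 0.33, adjusted p = 0.00473). Its peak was in iWAT library 2, which held skin and gland transcripts, and without that library the log2 fold change was -3.28. Prdm16, a transcriptional regulator of beige fat, was at 4.3, 5.72, 5.95, 5.85 and 5.97 CPM in eWAT and 11.8, 13.9 and 16 CPM in iWAT (log2 fold change -1.32 ± 0.20, adjusted p = 0.0564). Both were lower in every eWAT library, and 13 of 14 tested thermogenic genes had a negative log2 fold change with a median of -1.04, but only these 2 were called. Of all 14803 genes tested, 7738 had a negative value. The summed level of the thermogenic list overlapped between the depots. It was 1034, 1065, 1271, 1265 and 334 CPM in eWAT libraries 1 to 5 and 1150, 1041 and 514 CPM in iWAT libraries 1 to 3.

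Ucp1, the uncoupling protein of heat-producing fat, was uneven in iWAT, at 0, 4.08 and 9.46 CPM in iWAT libraries 1 to 3 and 0 to 0.608 CPM in eWAT, and was not called (adjusted p = 0.424). Otop1, at 0.991 to 18.9 CPM in eWAT and 22.8 to 46.6 CPM in iWAT, did not overlap between depots yet had an adjusted p of 0.351. Cox8b, a subunit of cytochrome oxidase found in muscle and brown fat, was at 11.7, 67.5, 10.9, 12.6 and 14.9 CPM in eWAT and 82.4, 172 and 49.8 CPM in iWAT (adjusted p = 0.358), and it overlapped through eWAT library 2, which also had the highest skeletal muscle sum of its depot. The coactivator Ppargc1a and the adrenergic receptor Adrb3 overlapped between depots (adjusted p = 0.484 and 0.802).

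No general gene of fat cells passed the test. The 15 adipocyte genes overlapped between the depots, their log2 fold changes had a median of -0.14, and Adipoq, which encodes adiponectin, was at 2261 to 4188 CPM in eWAT and 1916 to 2579 CPM in iWAT (adjusted p = 0.671). Leptin (Lep) was at 2481, 1962, 1226, 1258 and 6478 CPM in eWAT and 1427, 654 and 6259 CPM in iWAT, and the highest libraries of both depots, eWAT library 5 and iWAT library 3, were the 2 of the 8 whose file headers began with the higher of 2 number prefixes, which the labels do not explain. Rbp4, the retinol carrier, was above iWAT in every eWAT library (518 to 1273 against 332 to 435 CPM) without being called (adjusted p = 0.280).

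Most genes of oxidative metabolism had small negative values, none past the test. Of 19 fatty acid oxidation genes 17 and of 24 genes of the TCA cycle and pyruvate dehydrogenase 22 had a negative log2 fold change, with medians of -0.30 and -0.23, beside 7738 of all 14803 genes tested. Acadl, a dehydrogenase of long-chain fatty acids, was at 299.6 to 553 CPM in eWAT and 571 to 611 CPM in iWAT (log2 fold change -0.59 ± 0.20, adjusted p = 0.394). Mitochondrially encoded transcripts made up 8.02% ± 3.06 of counts in eWAT (SD, n = 5) and 8.19% ± 1.65 in iWAT (SD, n = 3), a difference within the spread of either depot (exact permutation test, two-sided p = 0.893, where the smallest p possible is 0.0357). Acsf2, an acyl-CoA synthetase, was called as lower in eWAT at 21 to 29.6 CPM beside 42.1 to 47 CPM (log2 fold change -0.74 ± 0.14, adjusted p = 0.0952).

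The remaining named genes lower in eWAT act outside the cell or on small molecules. Cxcl14 (chr13:56288643-56296551), a chemokine abundant in skin and brown fat, was at 3.99, 1.9, 1.96, 2.23 and 5.7 CPM in eWAT and 69.9, 51.4 and 53.4 CPM in iWAT (log2 fold change -4.20 ± 0.38, adjusted p = 0.00473). It was the only called member of a list of 15 tested chemokine ligands, which did not hold Ccl21a. Adh7, an alcohol dehydrogenase that oxidizes retinol, was at 0.262, 0, 0.156, 0.231 and 0.313 CPM in eWAT and 7.6, 13.1 and 4.9 CPM in iWAT (log2 fold change -5.41 ± 0.76, adjusted p = 0.0403), and its call was kept in 4 of the 8 fits without 1 library. Without iWAT library 2, its highest library, the log2 fold change was -4.97. Adh1, a related enzyme at much higher levels, was below iWAT in every eWAT library without being called (154 to 249 against 264 to 358 CPM, adjusted p = 0.310).

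Mmp3, stromelysin 1, which degrades matrix proteins, was at 0.785, 0.966, 0.104, 1.92 and 4.28 CPM in eWAT and 59.9, 36.3 and 26.9 CPM in iWAT (log2 fold change -4.65 ± 0.81, adjusted p = 0.0860) and was called in 2 of the 8 fits without 1 library. Vat1l was at 3.16, 1.11, 1.12, 1.98 and 2.38 CPM in eWAT and 20.9, 18.7 and 28 CPM in iWAT (log2 fold change -3.52 ± 0.37, adjusted p = 0.00969). Among called genes outside the rule for names, Grb14, an adaptor that inhibits the insulin receptor, was at 16.2 to 38.8 CPM in eWAT and 62.8 to 120.1 CPM in iWAT (adjusted p = 0.0885), and the transcription factor genes Ebf3 and Zfhx4 had log2 fold changes of -0.90 ± 0.13 and -2.63 ± 0.40 (adjusted p = 0.0488 and 0.0568). The class I histocompatibility gene H2-Q10 was at 2.62, 14.6, 17.2, 16.9 and 14.4 CPM in eWAT and 66.8, 105 and 64 CPM in iWAT (adjusted p = 0.0952), and reads of this family may be shared between its members.

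Skeletal muscle genes were apart as a sum but none of 10 tested members was called. Acta1, skeletal muscle actin, was at 11.5 to 31.4 CPM in eWAT and 43.2 to 88.2 CPM in iWAT (adjusted p = 0.143), and the creatine kinase Ckm at 0 to 5.37 CPM and 3.13 to 47.5 CPM (adjusted p = 0.407). Of 13 tested macrophage genes 12 had a positive log2 fold change with a median of 0.70, and none was called. Of all 14803 genes tested, 7065 had a positive value. Cd68, a lysosomal protein of macrophages, was at 39.1, 22.8, 21, 35.9 and 127 CPM in eWAT and 23.9, 32.5 and 23.6 CPM in iWAT (adjusted p = 0.728), and eWAT library 5 was the highest in both this gene and the epididymal sum. That library was also the only eWAT library of the knockout with the higher header prefix. The part of either in its Cd68 level was not tested.

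The depot difference of the knockout was then set beside that of wild type mice, which share none of its libraries. In the fit of all 25 libraries, 10.8% of genes were higher and 7.75% lower in eWAT of wild type mice on the HFD, and 17.5% and 14.2% on the ND, but these fits had other numbers of libraries and their counts do not measure the size of the difference. Of the 73 genes called in the knockout, 72 could be fitted with the wild type HFD libraries. All 72 had the same direction there and 66 were also called, and on the ND 66 had the same direction and 60 of these were called. Over 14444 genes, called or not, the log2 fold changes of the knockout and of wild type mice on the HFD had a Pearson correlation of 0.633. The share of all genes with the same direction was not counted.

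**Figure D5:**
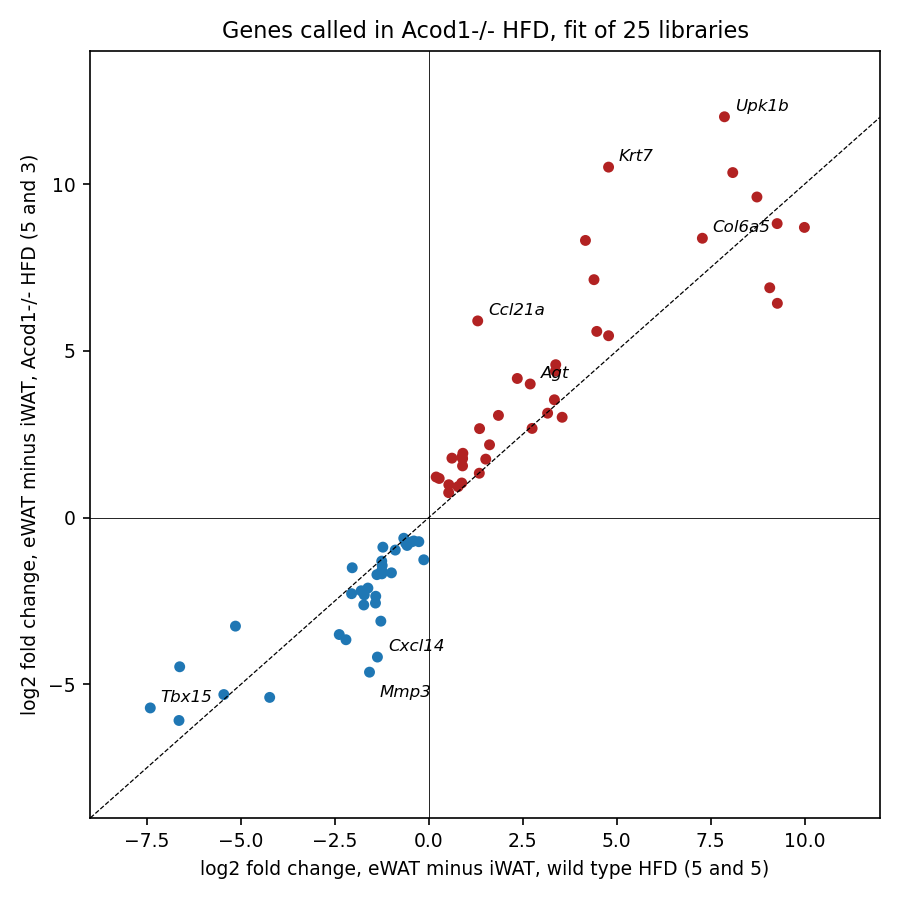
Log2 fold change (eWAT minus iWAT) in Acod1-/- mice on the HFD against that in wild type mice on the HFD, from the fit of 25 libraries, for 72 genes called in the knockout (red higher, blue lower in eWAT). All points lie in the quadrants of equal sign, and Cxcl14 is the only gene whose difference between the genotypes passed the test.

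The mesothelial list had a median log2 fold change of 3.55 in wild type mice on the HFD and 3.58 on the ND, beside 4.38 in the knockout. No member passed edgeR's test of the difference between genotypes on the HFD (smallest adjusted p 0.344). Of 15 members 7 had a negative difference, with a median of 0.10, beside 7259 of all 15034 genes. Wt1, Tbx15 and Shox2 had wild type HFD log2 fold changes of 9.27, -7.41 and -5.45, and adjusted p-values for the difference between genotypes of 0.927, 0.413 and 0.968. Agt and Cidea showed values of 2.70 and -2.20 in wild type mice (adjusted p for the difference 0.392 and 0.473). Ccl21a had 1.30 in wild type mice on the HFD and -3.76 on the ND, the opposite direction (adjusted p for the genotype difference on the HFD 0.406).

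A single gene, Cxcl14, passed the test of the difference between the depot effects of the 2 genotypes on the HFD, which is 0.00665% of 15034 genes, while 1524 genes had an unadjusted p under 0.05 and DESeq2 called 96. On the scale of the 25 libraries, Cxcl14 was at 4.19, 2.04, 2.05, 2.33 and 5.95 CPM in eWAT of the knockout, and at 21.2, 18.1, 8.95, 24.4 and 12.4 CPM in eWAT of wild type mice on the HFD. No library of the 2 groups overlapped. In iWAT the knockout had 73.5, 52.7 and 55.2 CPM and the wild type mice 30.7, 46.4, 39.98, 44.6 and 57.1 CPM, which overlapped. The depot effect was thus more negative in the knockout by 2.81 ± 0.44 on the log2 scale (adjusted p = 0.0285), and the adjusted p stayed between 0.00184 and 0.0927 when each of the 18 HFD libraries was left out in turn. When the 18 HFD libraries alone were fitted, the adjusted p was 0.145. In wild type mice on the ND, Cxcl14 was at 4.83 to 6.09 CPM in eWAT, which overlapped with eWAT of the knockout. Its level in their iWAT was 20.7 to 45.5 CPM. The depot log2 fold change was -2.60 in wild type mice on the ND and -1.36 in those on the HFD. Every ND library had the higher header prefix, while eWAT libraries 1 to 4 of both HFD groups had the lower prefix. The part of the prefix in these levels was not tested.

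Lipid-associated macrophage genes, which mark macrophages of crown-like structures in obese fat, were set beside those of wild type mice in the same way, and no member passed the test of the difference. Their median log2 fold change was -0.28 in the knockout and 2.53 in wild type mice on the HFD, 10 of 11 members had a negative difference between genotypes, and the smallest adjusted p was 0.281. Over all 15034 genes, 7259 had a negative difference. Gpnmb was at 29.5, 3.22, 4.93, 23.8 and 280.2 CPM in eWAT of the knockout and 14.9, 75.1 and 23.7 CPM in iWAT, with log2 fold changes of 0.85 in the knockout and 3.24 in wild type mice (adjusted p for the difference 0.569). Spp1, osteopontin, was at 0.951, 0.393, 0.235, 1.75 and 11.2 CPM and 0.613, 18.4 and 1.15 CPM, with log2 fold changes of -1.20 and 3.77 (adjusted p for the difference 0.303). In eWAT, library 5 held by far the most of both genes and in iWAT library 2 did, and these libraries were also the highest in epididymal and in gland transcripts. Library 5 was also the only eWAT library of the knockout with the higher header prefix, and no cause of its levels was tested.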

How the data were processed

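Libraries were made by the authors from poly(A) RNA of eWAT and iWAT with a strand-specific kit, sequenced on an Illumina instrument, trimmed with cutadapt and aligned with STAR to the mouse genome GRCm38. The counting program and its use of strand are not given in the sources used here. The deposited files hold raw read counts per gene, FPKM per gene and the cDNA length, per the file headers, and FPKM was not analysed. Rows of the counts that name no gene were dropped (no feature, 6.76% to 11.9%, and ambiguous, 1.52% to 1.87%, of all counts in the 8 libraries, these rows included).

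Samples were grouped by their titles. Counts of the genes whose mean reached 1 CPM were fitted with edgeR 4.0.16 in R 4.3.3 (TMM scaling, quasi-likelihood F test, Benjamini-Hochberg adjustment over all genes tested, adjusted p under 0.1, the study's threshold). This was checked on simulated counts. Intervals and limits cover counting error only, and a count of 0 was set to a limit of 3 reads in each library. DESeq2 1.42.0, the study's tool, was an alternative. The difference between genotypes was the depot by genotype contrast in a fit of the 25 libraries in 6 groups. Gene positions were from GENCODE (GRCm38), on which 41 of the 73 called genes overlap another annotated gene. Figures were drawn with matplotlib.

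Named genes were Acod1, the 10 called genes per direction with the largest fold change (groups apart, at least 5 CPM in the higher depot, a gene symbol that is not a placeholder), the 5 with the smallest p per direction, called genes of the interaction, and members of the gene lists, of which 51 were used. Some genes that meet this rule are not reported here. The members and lists were chosen with earlier results of these data known. Same-numbered eWAT and iWAT libraries did not deviate together (correlations 0.0442, 0.103 and -0.0779), so the numbers were not used as pairs. The highest correlation of any eWAT with any iWAT library was 0.302, for eWAT library 5 and iWAT library 3, which share the higher header prefix. Whether any libraries came from the same mouse was not tested. No 2 libraries agreed within sampling noise. The study's mouse numbers per group equal the library numbers, in one experiment. Library series were set from the number prefix of the file headers, whose meaning is not stated.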

Additional observations from a re-analysis of the deposited data

Results flagged for a closer look

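The depot difference of Cxcl14 differed between the genotypes on the HFD by -2.81 on the log2 scale, which was tested as the depot by genotype contrast. Among 147 values checked in the 5 eWAT libraries of the knockout (level of each gene named or called, summed lists and the mitochondrial share), 35 had a highest or lowest library set apart from the other 4 by Dixon's criterion. Independent normal values meet it in about 1 of 20 groups. The levels were not logged, some genes and lists were chosen after the values were seen, and some sums hold genes also checked singly. The 35 therefore cannot be set against that rate.

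eWAT library 5 accounted for most of these. It was the highest for genes of macrophages, with Trem2 at 48.6 CPM (next highest 10.2), Gpnmb at 280.2, Spp1 at 11.2, Adgre1 at 94.1 and Cd68 at 127 CPM. The same library had the highest level of Lep at 6478, Col1a1 at 483, Hp at 7731 and Saa3 at 82.5 CPM, and of the epididymal gene Crisp1 at 899 CPM (next highest 31.0). It also stood above the others in Krt18 at 13.7, Krt5 at 1.15, Irx1 at 0.835, Lhx8 at 0.522 and Otop1 at 18.9 CPM and in the skin and mammary epithelium sum at 19.6 CPM. It was the lowest for the thermogenic sum at 334 CPM (next lowest 1034) and for Atp6v0e2 at 54.9 CPM.

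eWAT library 1 was the highest for Lcn8, an epididymal lipocalin, at 73.5 CPM (next highest 0.250), for Hoxc10 at 2.45 and Alx1 at 4.11 CPM, and the lowest for Prdm16 at 4.30 and H2-Q10 at 2.62 CPM. eWAT library 2 was the highest for S100b at 10.9, Cox8b at 67.5, Myh4 at 13.2, Irx2 at 1.002 and Msrb1 at 201 CPM, for the skeletal muscle sum at 83.9 CPM and for the sebaceous and preputial gland sum at 3.40 CPM. eWAT library 4 was the highest for Wt1 at 17.4, Slc39a8 at 21.97 and Cxcl13 at 38.01 CPM and for the sperm and spermatid sum at 716 CPM, and eWAT library 3 for Ntrk3 at 5.29 CPM. In each of the 73 called genes the eWAT and iWAT libraries did not overlap, also with these libraries included.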

How the results depend on the processing

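Beside 39 genes higher and 34 lower in eWAT, the counts were 12 and 11 at an adjusted p under 0.05, 21 and 22 with 1 CPM required in every library, 352 and 155 with DESeq2, 76 and 63 when the header number prefix was added to the model, 15 and 12 in the 6 libraries with the lower prefix, 0 and 0 in libraries labelled 16 weeks (where 1 iWAT library was assumed to vary like eWAT), 302 and 271 in the fit of 25 libraries, and 17 and 18 without eWAT library 5 and iWAT library 2. Fits without 1 library gave 9 to 25 higher and 8 to 30 lower. With the replicate number as a block the counts were 24 and 22, of which 18 genes were among the 73. The labels do not say whether libraries that share a number came from the same mouse. The main test treated all libraries as independent. Other size factors, no filter and robust estimation left both counts within 1.5 times, robust estimation and the fit without both libraries having been chosen after seeing the data. The 73 genes had the same sign wherever they could be fitted, which their lack of overlap between the depots made likely beforehand. For the genotype difference, with 1 gene called, DESeq2 called 96, the 18 HFD libraries alone 0 by edgeR (1276 at an unadjusted p under 0.05), the replicate block 484 and the fits without 1 library between 1 and 391, with 2 without eWAT library 3, 224 without eWAT library 5, 51 without iWAT library 1, 391 without iWAT library 3 and 1 without any other. The cause of these changes was not tested, other than that some fits held fewer libraries. The mitochondrial share stayed within the spread, with differences of -1.46 to 0.568 percentage points without 1 library. Of 51 list medians, 22 moved by more than the spread between libraries in at least 1 setting. The iWAT libraries held few or no reads of Upk1b, Wt1, Msln and Nkain4, which limits how well those folds are known.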

Other observations

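Acute-phase genes summed to 4424, 3873, 4417, 3993 and 9446 CPM in eWAT libraries 1 to 5 and to 2401, 2248 and 3734 CPM in iWAT libraries 1 to 3, with no overlap, although none of the 11 tested members was called by edgeR. Most of the sum was haptoglobin (Hp), the carrier of free hemoglobin, at 3357, 2672, 3628, 3215 and 7731 CPM in eWAT and 1662, 1561 and 2569 CPM in iWAT (log2 fold change 1.09 ± 0.38, adjusted p = 0.407, and 0.0421 with DESeq2). Gas6, a bridging ligand of TAM receptors, was at 63.7 to 107 CPM in eWAT and 43.5 to 61 CPM in iWAT (adjusted p = 0.216), and the growth factor Tgfb3 at 18.9 to 26.2 CPM and 10.2 to 15.8 CPM (adjusted p = 0.138), both apart and neither called.

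Of 16 cell cycle genes, all had a more negative depot effect in the knockout than in wild type mice on the HFD, with a median difference of -1.02 and 7 at an unadjusted p under 0.05, but none passed the adjusted test (smallest adjusted p 0.307). Over all 15034 genes, 7259 had a negative difference and 1524 had an unadjusted p under 0.05. Mki67, a marker of dividing cells, was at 10.8, 24.2, 11.2, 6.57 and 33.3 CPM in eWAT and 13, 31.6 and 21.7 CPM in iWAT of the knockout. All 15 adipocyte genes had a difference of the opposite sign, with a median of 0.43 (smallest adjusted p 0.372). Cholesterol synthesis genes summed to 4999 CPM in iWAT library 2 and to 511 to 1151 CPM in the other 7 libraries.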
